A study of Mus musculus with 8 samples.

Results

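The 3 lamin genes and 4 genes of inner nuclear membrane proteins were followed through an mRNA stability experiment in P19 cells, a mouse embryonal carcinoma line. They are Lmnb1, Lmnb2, Lmna, Lbr, Emd, Sun1 and Sun2, taken by symbol from a table of 23284 genes, and all 7 were among the 11452 genes with a mean of 1 FPKM or more (fragments per kilobase, a unit corrected for transcript length and sequencing depth). The set was chosen by gene family with the FPKM of both siRNA arms in view, since Lmnb2 was known to be raised by the knockdown. Differences between the siRNA arms are therefore given for the 7 genes as a description, with no test. The tests below concern the course over time, which the choice did not use, and other genes of the nuclear envelope. The lists of those other genes were also drawn up with earlier results of these data known.

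Cells were transfected with an siRNA against Upf3a or with a control siRNA, and 24 h later both arms received actinomycin D, which blocks transcription. RNA was taken at 0, 15, 105 and 225 min after the drug, which gives 8 conditions: Upf3a siRNA at 4 times and control siRNA at the same 4 times. The Upf3a protein belongs to nonsense-mediated decay, in which mRNAs with a premature stop codon are destroyed. The labels list 2 cultures per condition and the table holds 1 value for each, bracketed by confidence limits from the authors at an unstated level, so n counts time points and p-values measure the disagreement between time points, not between cultures. All cells are of 1 line, and the knockdown was partial: Upf3a lay at 4.16 to 5.27 FPKM in the Upf3a siRNA arm and at 13.6 to 15.0 FPKM in the control arm. The related gene Upf3b had 9.80, 8.24, 10.8 and 14.0 FPKM in the Upf3a siRNA arm and 10.9, 11.9, 12.7 and 18.3 FPKM in the control arm. It was thus lower in the Upf3a siRNA arm at each time.

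Summed FPKM ran from 537350 to 923333 per condition and was highest at 225 min in both arms, and the read depth is unknown. The embryonal carcinoma markers were present in all 8 conditions, with Pou5f1 at 1391 to 3153 FPKM, Lin28a at 209 to 364 FPKM and Nanog at 34.9 to 80.1 FPKM. Hbb-b1, a globin gene, was listed at 0 in all 8, and the trophoblast and fibroblast markers lay between 0 and 10.5 FPKM. The neuronal tubulin gene Tubb3 stood at 40.7 to 64.7 FPKM, while Neurod1 lay at 0.056 to 0.888 FPKM and Rbfox3 at 0.518 to 0.715 FPKM. In bulk RNA, fewer cells of a type and less RNA per cell cannot be told apart.

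Lamins are intermediate filament proteins that form a meshwork under the inner nuclear membrane. Lmnb1 and Lmnb2 encode the B-type lamins, which stay anchored to the membrane by a farnesyl group, and Lmna encodes lamins A and C, which are low in undifferentiated embryonic cells and accumulate as cells differentiate. Lbr encodes the lamin B receptor, which holds heterochromatin at the envelope and also acts as a sterol reductase, and Emd encodes emerin, a LEM-domain protein that binds lamins and the chromatin protein BAF. Sun1 and Sun2 span the inner membrane and bind the nesprins of the outer membrane, linking the lamina to the cytoskeleton.

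Lmnb2 lies on chromosome 10 at 80901203 to 80918245 (minus strand) of GRCm38, the assembly also called mm10, and Lmna on chromosome 3 at 88480147 to 88509956 (minus strand). Lbr lies on chromosome 1 at 181815335 to 181843046 (minus strand), Emd on the X chromosome at 74254687 to 74261548 (plus strand), Sun1 on chromosome 5 at 139200637 to 139249840 (plus strand) and Sun2 on chromosome 15 at 79724070 to 79742536 (minus strand). Each FPKM value stands for a whole gene. Exons of Sun1, Sun2 and Lbr overlap annotated transcripts on the other strand, exons of Lbr and Emd overlap other annotations on the same strand, in the case of Emd a pseudogene, and strand-specific counting is not stated in the sources used here.

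Promoter sequences were taken from RefSeq (GRCm38.p6), where 6 of the 7 genes were matched, all but Lmnb1. The 250 bases before the first RefSeq start site are shown for Lmnb2, the member that differed most between the arms, for Lmna, as another lamin gene, and for Lbr, whose values were below control at each of the 4 times. All are written 5′ to 3′ on the gene's own strand, from chr10:80918246-80918495 for Lmnb2, chr3:88503353-88503602 for Lmna and chr1:181842402-181842651 for Lbr. The windows of Lmna and Lbr lie inside the longer gene spans given above, since those spans begin at start sites further upstream. Capitals mark GGGCGG, the core of the GC box, and CCAAT, on either strand.
Lmnb2: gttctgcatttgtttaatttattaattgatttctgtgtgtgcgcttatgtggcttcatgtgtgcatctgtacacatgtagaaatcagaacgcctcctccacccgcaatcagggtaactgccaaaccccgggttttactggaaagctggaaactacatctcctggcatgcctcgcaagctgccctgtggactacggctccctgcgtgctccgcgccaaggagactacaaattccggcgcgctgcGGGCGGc
Lmna: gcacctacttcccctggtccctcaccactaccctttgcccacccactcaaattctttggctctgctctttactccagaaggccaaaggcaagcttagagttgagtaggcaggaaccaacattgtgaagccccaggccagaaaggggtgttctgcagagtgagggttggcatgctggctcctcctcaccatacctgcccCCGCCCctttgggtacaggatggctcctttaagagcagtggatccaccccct
Lbr: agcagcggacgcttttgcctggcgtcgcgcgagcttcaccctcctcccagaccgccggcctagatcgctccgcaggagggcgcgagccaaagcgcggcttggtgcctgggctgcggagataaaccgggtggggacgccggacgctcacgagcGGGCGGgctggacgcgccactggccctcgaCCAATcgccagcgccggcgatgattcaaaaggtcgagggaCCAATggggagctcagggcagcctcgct
The Lmnb2 window holds 1 GGGCGG and no CCAAT, that of Lmna 1 GGGCGG and no CCAAT, and that of Lbr 1 GGGCGG and 2 CCAAT. Of 32851 promoter windows of the same length, 32.7% hold GGGCGG and 33.8% hold CCAAT on either strand. Neither TATAAA nor CACGTG was in these 3 windows, against 12.4% and 6.02% of all windows. The windows also differ in CG dinucleotides, with 14 in that of Lmnb2, 1 in that of Lmna and 31 in that of Lbr, where the median window has 6. These matches describe the letters and no binding was measured.

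By FPKM, which is per length and can be compared between genes, Lmnb1 was the most abundant of the 7 at a mean of 125 FPKM over the 8 conditions, rank 676 of the 11452 genes. Emd and Lbr followed at 72.0 and 71.2 FPKM, and their ranges overlapped in both arms. Sun1 averaged 25.0 FPKM, Lmnb2 20.2 FPKM, Lmna 7.57 FPKM and Sun2 3.00 FPKM, and the values of Lmna and Sun2 did not overlap in either arm. The places of Lmnb2 and Sun1 depended on the arm: in the Upf3a siRNA arm Lmnb2 averaged 28.6 ± 4.31 FPKM and Sun1 23.1 ± 2.30 FPKM, and in the control arm Lmnb2 averaged 11.8 ± 1.19 FPKM and Sun1 26.9 ± 3.33 FPKM (mean ± SD, n = 4 time points).

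**Figure D1:**
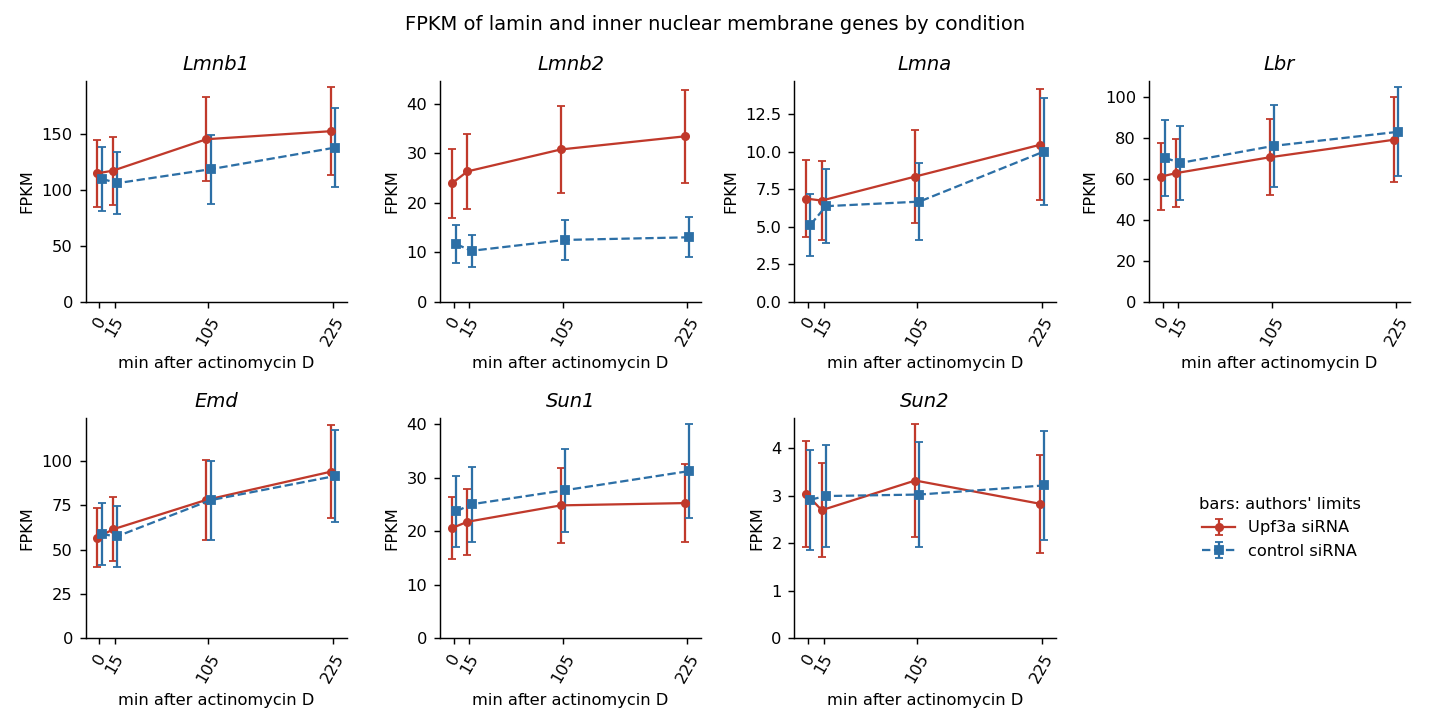
FPKM of each of the 7 genes (vertical axes, each from 0 on its own scale) against minutes after actinomycin D, for Upf3a siRNA (red circles) and control siRNA (blue squares). Bars are the authors' confidence limits of single conditions. Only in the Lmnb2 panel do the limits of the arms stay apart at all 4 times.

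Lmnb2 had 23.9, 26.4, 30.8 and 33.5 FPKM at 0, 15, 105 and 225 min in the Upf3a siRNA arm, against 11.6, 10.3, 12.5 and 13.0 FPKM in the control arm. The lowest knockdown value was thus above the highest control value, and the authors' limits were apart at each time, with lower limits of 17.0, 18.8, 22.0 and 24.1 FPKM in the knockdown arm and upper limits of 15.4, 13.5, 16.6 and 17.0 FPKM in the control arm. Limits apart and higher at all 4 times were found for 0.288% of tested genes, and apart and lower for 0.0873%. At single times, limits apart and higher were found for 0.576%, 1.14%, 0.961% and 1.41% of tested genes at 0, 15, 105 and 225 min. The ratio was 2.05 before any time under actinomycin D and 2.57, 2.47 and 2.57 later. On the log2(FPKM + 1) scale, which understates differences of low genes, the mean difference was 1.20 (SD 0.15, n = 4 time points), the 25th highest of 11452 genes.

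The 2 other lamin genes differed far less, with limits that overlapped at every time. Lmnb1, on chromosome 18, had 115, 117, 146 and 153 FPKM in the Upf3a siRNA arm and 110.2, 106, 119 and 138 FPKM in the control arm, so it was higher in the knockdown arm at each time while the ranges of the arms overlapped. Its mean log2 difference was 0.16 (SD 0.096). Lmna had 6.87, 6.74, 8.34 and 10.5 FPKM in the Upf3a siRNA arm and 5.12, 6.36, 6.67 and 10.0 FPKM in the control arm, again higher at each time with overlapping ranges. Its mean log2 difference was 0.19 (SD 0.15), and the ratio varied between 1.04 at 225 min and 1.34 at 0 min. Among tested genes, 60.4% kept 1 sign at all 4 times, so a constant sign by itself is common here.

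Lmnb2 thereby took a larger share of lamin mRNA. It made up 16.4% to 17.5% of the summed FPKM of the 3 lamin genes in the Upf3a siRNA arm and 8.08% to 9.17% in the control arm, with no overlap. Lmnb1 made up 78.3% ± 0.60 in the Upf3a siRNA arm and 86.3% ± 0.47 in the control arm (mean ± SD, n = 4 time points). The share of Lmna was 4.76% ± 0.39 in the Upf3a siRNA arm and 5.07% ± 0.90 in the control arm, with overlapping ranges. These shares within a condition do not depend on how the conditions were scaled to each other. The summed lamin FPKM was 146, 150.4, 185 and 197 in the Upf3a siRNA arm and 127, 123, 138 and 161 in the control arm at 0, 15, 105 and 225 min. Lmnb2 accounted for 65.2%, 58.0%, 39.1% and 57.4% of that difference in turn, values that do rest on the scaling between the arms as deposited.

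**Figure D2:**
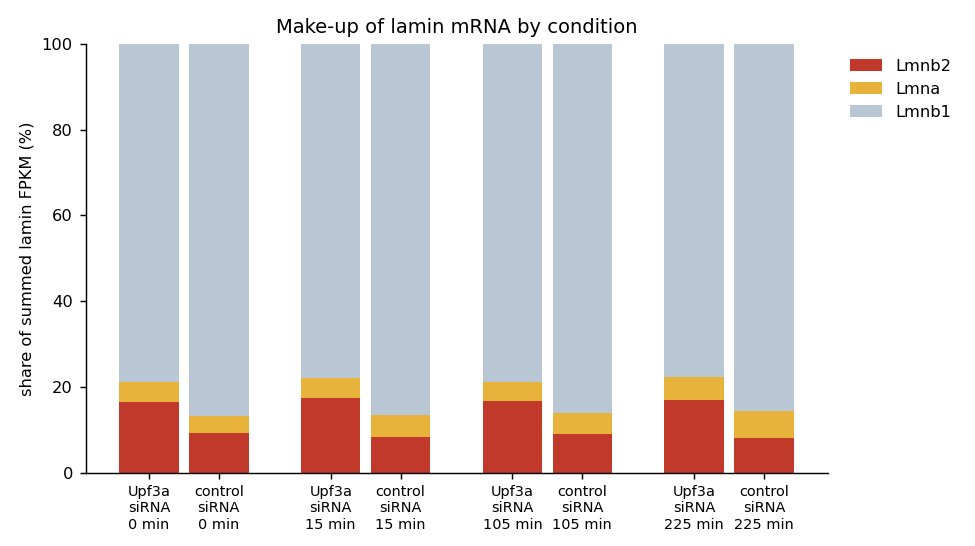
Share of the summed FPKM of Lmnb1, Lmnb2 and Lmna (vertical axis, percent) in each condition, with Upf3a siRNA left of control siRNA at each time. The red Lmnb2 part is between 16.4% and 17.5% in the Upf3a siRNA arm and between 8.08% and 9.17% in the control arm.

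Of the inner nuclear membrane genes, Lbr and Sun1 had lower values in the knockdown arm at all 4 times and Emd and Sun2 had no constant sign. Lbr had 61.0, 62.7, 70.4 and 79.0 FPKM in the Upf3a siRNA arm and 70.2, 67.7, 76.0 and 82.9 FPKM in the control arm, with ranges that overlapped. Its mean log2 difference was -0.12 (SD 0.056), and -0.037 when conditions were scaled to ribosomal protein genes. Sun1 had 20.6, 21.8, 24.8 and 25.3 FPKM in the Upf3a siRNA arm and 23.7, 25.0, 27.7 and 31.2 FPKM in the control arm. Its ranges overlapped as well, and its mean log2 difference was -0.21 (SD 0.062), or -0.13 with ribosomal protein scaling, the ratio being lowest at 225 min, at 0.808.

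Emd, the gene for emerin, had 56.7, 61.4, 78.0 and 93.9 FPKM in the Upf3a siRNA arm and 58.7, 57.5, 77.9 and 91.5 FPKM in the control arm. The ratio between the arms stayed between 0.967 and 1.07, with a mean log2 difference of 0.022 (SD 0.060), which was -0.041 after quantile normalization, -0.0083 with median-of-ratios scaling and -0.0025 without the 15 min time point. Sun2 was low in both arms, at 3.03, 2.69, 3.32 and 2.83 FPKM in the Upf3a siRNA arm and 2.91, 2.99, 3.02 and 3.21 FPKM in the control arm. It was higher at 2 times and lower at 2, with a mean log2 difference of -0.026 (SD 0.12). Limits of the arms overlapped at every time for Lbr, Emd, Sun1 and Sun2. Sun1 therefore remained the main SUN gene, at 88.6% ± 1.18 of the summed FPKM of Sun1 and Sun2 in the Upf3a siRNA arm and 89.8% ± 0.75 in the control arm.

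**Figure D3:**
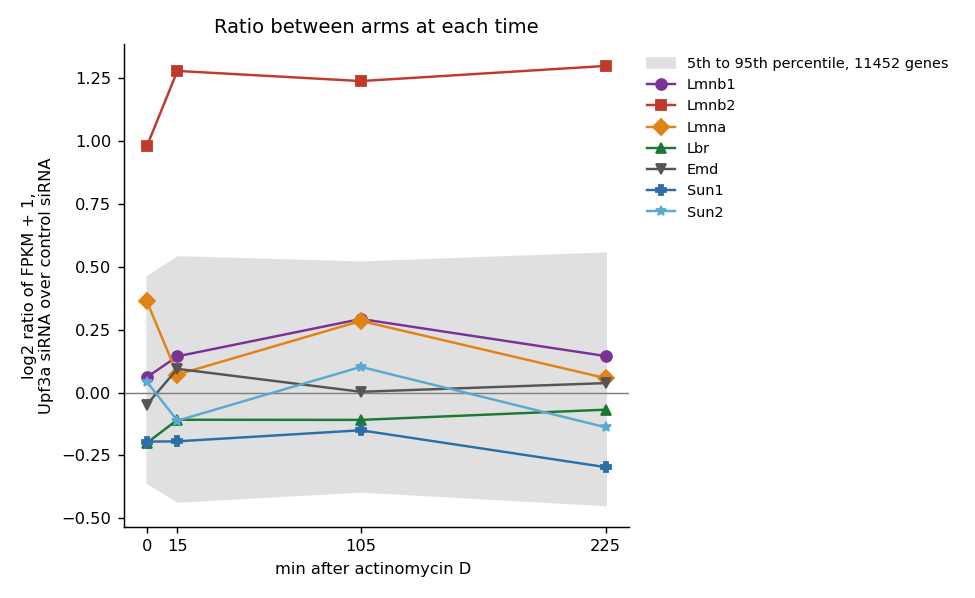
Log2 ratio of FPKM + 1, Upf3a siRNA over control siRNA (vertical axis), against minutes after actinomycin D for the 7 genes. The grey band spans the 5th to 95th percentile of 11452 genes at each time. Lmnb2 lies above the band at all 4 times, between 0.98 and 1.30, and the other 6 genes lie inside it.

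For the 7 genes the median log2 difference was 0.022, and for the 6 other than Lmnb2 it was -0.0022, beside 0.0046 over all tested genes. In the fit over all genes (limma on log2(FPKM + 1), adjusted p below 0.05), 26.1% of tested genes were called higher and 22.3% lower in the knockdown arm, 48.4% in all. When scaled to ribosomal protein genes, the calls were 3870 higher and 1243 lower, where the values as deposited gave 2986 higher and 2557 lower.

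The next question was how the 7 mRNAs changed after transcription was blocked. FPKM has no outside standard, so a slope over hours shows a change on the deposited scale and not an absolute loss. Each slope was tested against 0, and not against the rise in summed FPKM. That sum went from 537437 at 0 min to 923333 at 225 min in the Upf3a siRNA arm. In the control arm it went from 562848 to 880304. By this test 6 of the 7 were called higher with time, and Sun2 did not pass. Over both arms, 81.3% of tested genes were called, 42.7% higher and 38.6% lower with time, so that a call by itself is common. The direction rests on the scaling: relative to 77 ribosomal protein genes, all 7 slopes were negative and the median of all genes shifted by -0.247 log2 units per hour, with 53 genes called higher and 10670 lower, against 4891 higher and 4423 lower as deposited.

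Emd and Lmna had the highest slopes in the values as deposited. That of Emd was 0.18 ± 0.018 log2 units per hour (slope ± SE over both arms, limma adjusted p = 2.4e-05, 8 conditions). Its FPKM at 225 min was 1.66 times that at 0 min in the Upf3a siRNA arm and 1.56 times in the control arm. That of Lmna was 0.17 ± 0.022 log2 units per hour (limma adjusted p = 1.0e-04), and at 225 min it stood at 1.52 times its 0 min value in the Upf3a siRNA arm and 1.96 times in the control arm. These slopes were at percentiles 87.6 and 85.7 of the tested genes, whose median was 0.014. The order of the pair was not fixed: Lmna was above Emd with a pseudocount of 0.1 (0.194 for Lmna and 0.187 for Emd), with ribosomal protein scaling, without the 15 min time point (0.186 for Lmna and 0.179 for Emd) and after quantile normalization (0.26 for Lmna and 0.064 for Emd).

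The B-type lamins, Lbr and Sun1 had smaller slopes in the values as deposited. They were 0.10 ± 0.017 log2 units per hour for Lmnb1 (limma adjusted p = 5.1e-04), 0.090 ± 0.021 for Lmnb2 (limma adjusted p = 0.0044), 0.085 ± 0.014 for Lbr (limma adjusted p = 4.6e-04) and 0.085 ± 0.016 for Sun1 (limma adjusted p = 0.0011). They lay at percentiles 65.2 to 69.9, below the upper quartile of tested genes, which was 0.13. After quantile normalization the slopes of Lmnb1 and Lbr turned to -0.047 and -0.031, and that of Emd shrank to 0.064, below Lmnb2 at 0.11 and Sun1 at 0.069, so that the order given here does not hold under that setting. Sun2 had a slope of 0.013 ± 0.019 (limma adjusted p = 0.54), at percentile 49.7, and it was 0.14 after quantile normalization (limma adjusted p = 3.7e-04).

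**Figure D4:**
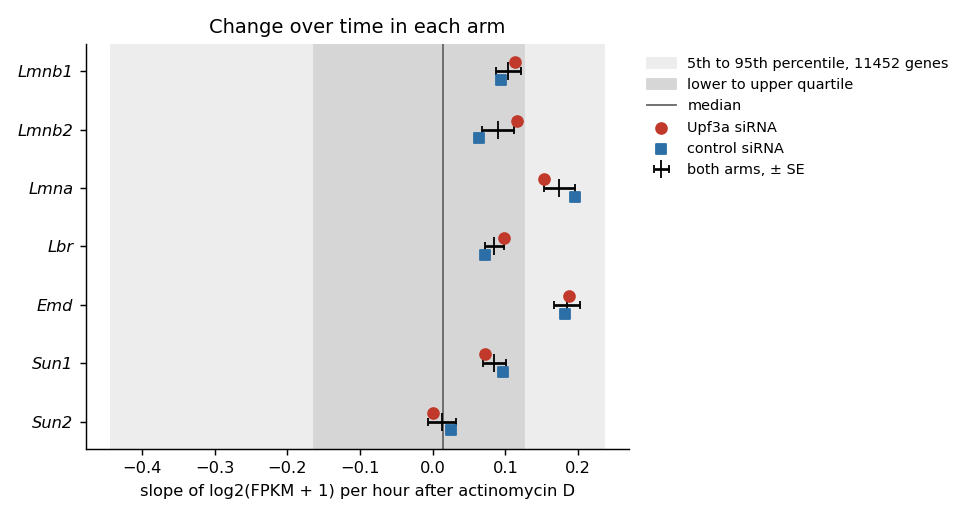
Slope of log2(FPKM + 1) per hour after actinomycin D (horizontal axis) for each of the 7 genes, with Upf3a siRNA as red circles, control siRNA as blue squares and both arms together as black marks with SE. Grey bands span the 5th to 95th percentile and the lower to upper quartile of 11452 genes. Emd and Lmna lie above the inner band and Sun2 lies near the median of 0.014.

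Whether the knockdown changed these slopes was tested with the term for arm by hours. None of the 7 passed, with limma adjusted p between 0.79 and 0.98, and 0 of 7 had an unadjusted p below 0.05. With limma's trend and robust options none passed either. Over all tested genes 1 was called, which is 0.00873%, and 762 had an unadjusted p below 0.05.

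For Lmnb2 the slope was 0.12 log2 units per hour in the Upf3a siRNA arm and 0.064 in the control arm. The difference of 0.052 had a 95% interval of -0.040 to 0.14 (limma adjusted p = 0.79), so neither an equal course nor a slower loss in the knockdown arm can be read from it. For Lmna the slope was 0.15 in the Upf3a siRNA arm and 0.20 in the control arm, a difference of -0.043 with an interval of -0.14 to 0.055. The narrowest interval was that of Lbr, -0.043 to 0.093 around 0.025. Lmnb1, Emd, Sun1 and Sun2 differed by 0.019, 0.0050, -0.025 and -0.024 log2 units per hour.

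For each member, the genes most like it in log2(FPKM + 1) over the 8 conditions were taken from 7602 genes (7603 for Sun2). These had a mean of 5 FPKM or more, and predicted genes, small RNAs, pseudogenes and Rik names were left out. The points share 2 arms and 4 times, so each correlation is a description of these 8 values. For Lmnb2 they were Iqgap3 (r = 0.996), Rint1 (r = 0.996) and Nsmce4a (r = 0.995), and 386 genes reached 0.9. Iqgap3 averaged 10.1 FPKM in the Upf3a siRNA arm and 5.25 FPKM in the control arm. Rint1 averaged 6.89 FPKM with Upf3a siRNA and 3.98 FPKM with control siRNA, and Nsmce4a 66.0 FPKM with Upf3a siRNA and 46.9 FPKM with control siRNA. Genes picked for likeness to Lmnb2 share the direction of its arm difference through that choice, so these means are no further result.

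The number of genes at this likeness varied widely between members. For Lmnb1 the most alike were Utp20, Rrp12 and Cobra1, with r of 0.991 to 0.996, and 1146 genes reached 0.9. For Emd they were Ganab, Scly and Ttc13, with 2214 genes at 0.9 or more, and for Lbr Fbxo3, Actr3 and Cmc1, with 1178. For Lmna they were Comtd1, Arid3c and Dazap1, with 607 genes, and for Sun1 Pan2, Dna2 and Col5a2, with 389. Sun2 reached 0.873 with Deptor, its closest, and 0 genes at 0.9. Among the 7 themselves the highest r was 0.912, between Lbr and Sun1, followed by 0.898 between Lmnb1 and Lmna, while Lmnb2 ranged from -0.431 with Sun1 to 0.636 with Lmnb1.

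The wider nuclear envelope was read from 73 further genes in 6 lists, of which 70 were tested. Because earlier results of these data were known when the lists were drawn up, adjusted p-values for the level difference carry that limit. For the level difference, 20 rose in the knockdown arm (28.6%, beside 26.1% of all tested genes), 10 fell (14.3%, beside 22.3%) and 40 did not pass. Their median log2 difference was 0.040, beside 0.0046 over all genes. The share that rose is near the background. With ribosomal protein scaling the counts were 30 higher and 5 lower, where all tested genes gave 3870 higher and 1243 lower. Lmnb2 at 1.20 exceeded each of the 70 in the values as deposited. That rank is a description and no test, since Lmnb2 was known beforehand to be raised on this contrast. Vps4a was next, at 1.05. With a pseudocount of 0.1 the values were 1.26 for Lmnb2 and 1.22 for Vps4a, so the distance between them depends on the pseudocount.

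**Figure D5:**
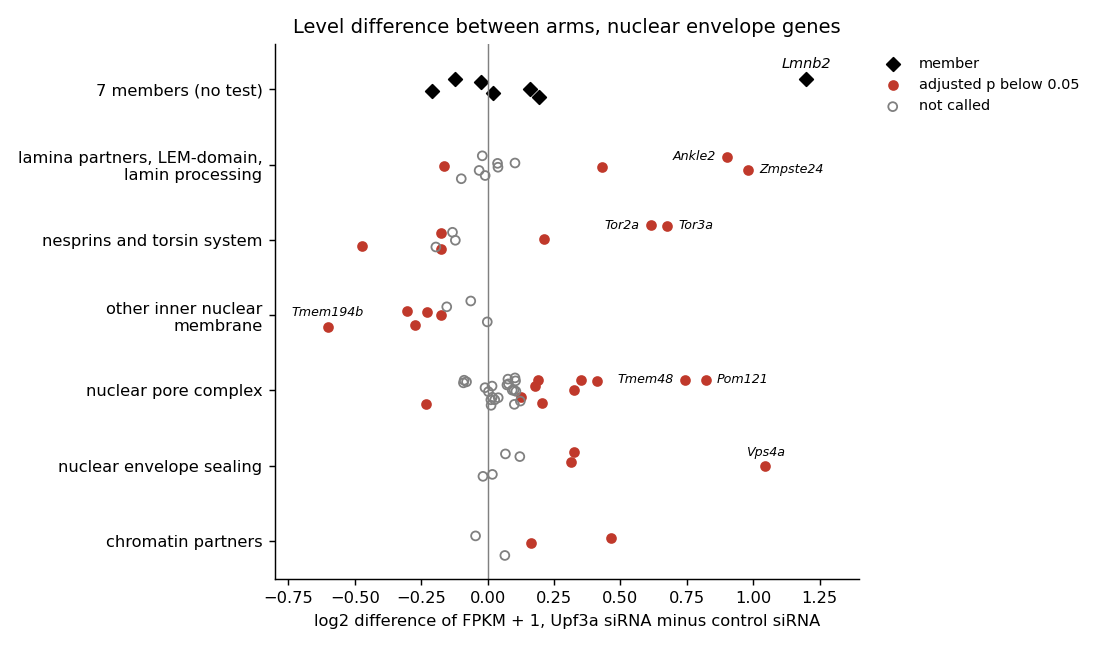
Log2 difference of FPKM + 1, Upf3a siRNA minus control siRNA (horizontal axis), for the 7 genes (black diamonds, no test) and 70 other nuclear envelope genes by list. Filled red points passed limma's adjusted p of 0.05 and open points did not, and vertical scatter within a row has no meaning. Lmnb2 lies at 1.20 and Vps4a, next to it, at 1.05.

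Of 11 genes of lamina partners, LEM-domain proteins and lamin processing, 3 rose, 1 fell and 7 did not pass. The share that rose was 27.3%, beside 26.1% of all tested genes, and the share that fell 9.09%, beside 22.3%. Zmpste24, the protease that cuts prelamin A, had 21.1, 20.5, 19.2 and 17.6 FPKM in the Upf3a siRNA arm and 12.7, 9.32, 9.84 and 6.72 FPKM in the control arm at 0, 15, 105 and 225 min. The log2 difference was 0.98 (limma adjusted p = 2.0e-04). Ankle2, a LEM-domain protein that acts on BAF at mitotic exit, averaged 10.9 ± 2.03 FPKM in the Upf3a siRNA arm and 5.41 ± 1.47 FPKM in the control arm (limma adjusted p = 5.6e-05). Vrk1, the kinase that releases BAF from chromatin, averaged 28.2 ± 4.91 FPKM in the Upf3a siRNA arm and 20.6 ± 2.74 FPKM in the control arm (limma adjusted p = 7.9e-04). Fntb, the farnesyltransferase subunit that modifies B-type lamins and prelamin A, was lower by a log2 difference of -0.16 (limma adjusted p = 0.016), a call lost with ribosomal protein scaling and without the 0 or the 105 min time point (adjusted p = 0.22, 0.060 and 0.066). Exons of Churc1 overlap Fntb on the same strand, those of Gm26186 overlap Zmpste24 on the same strand and those of Gm43137 overlap Ankle2 on the other.

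Of 9 nesprin and torsin genes, 3 rose (33.3%, beside 26.1% of all tested genes) and 3 fell (33.3%, beside 22.3%). The torsins are ATPases of the envelope lumen. Tor3a averaged 4.77 ± 0.39 FPKM in the Upf3a siRNA arm and 2.61 ± 0.25 FPKM in the control arm (limma adjusted p = 6.0e-05), while Tor1a averaged 20.2 ± 3.49 FPKM in the Upf3a siRNA arm and 28.2 ± 2.80 FPKM in the control arm (limma adjusted p = 0.0012). Tor2a rose by 0.61 (limma adjusted p = 2.6e-04), and its exons overlap those of Ttc16 on the other strand. Tor1aip1, which activates torsin, was lower by a log2 difference of -0.18 (limma adjusted p = 0.011), not passing with ribosomal protein scaling or without the 15 min time point (adjusted p = 0.20 and 0.053). Its exons overlap those of Tor1aip2 on the other strand, which rose by 0.21 (limma adjusted p = 0.011) and is named here after its value was seen.

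Of 8 other inner nuclear membrane genes, 0 rose (beside 26.1% of all tested genes) and 5 fell (62.5%, beside 22.3%). Their median log2 difference was -0.20. Tmem194b, now named Nemp2, averaged 4.07 ± 1.07 FPKM in the Upf3a siRNA arm and 6.62 ± 1.18 FPKM in the control arm (limma adjusted p = 2.7e-04). Tmem43, which binds lamins and emerin, averaged 25.7 ± 2.05 FPKM in the Upf3a siRNA arm and 31.3 ± 3.21 FPKM in the control arm (limma adjusted p = 0.0032). Tm7sf2, a sterol reductase related to Lbr, was lower by a log2 difference of -0.30 (limma adjusted p = 0.0071), and exons of Vps51 overlap it. Tmem188, now Cnep1r1, was lower by -0.23 (limma adjusted p = 0.0092), a call lost with ribosomal protein scaling (adjusted p = 0.11).

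Of 31 nuclear pore genes, 9 rose (29.0%, beside 26.1% of all tested genes), 1 fell (3.23%, beside 22.3%) and 21 did not pass. The largest rises named were those of Pom121 and Tmem48. Pom121 had 46.2, 48.1, 48.0 and 32.2 FPKM in the Upf3a siRNA arm and 30.7, 25.7, 23.3 and 17.8 FPKM in the control arm (log2 difference 0.82, limma adjusted p = 1.8e-04). Its exons overlap those of Nsun5 on the other strand. Tmem48, now Ndc1, had 51.7, 53.9, 62.4 and 77.7 FPKM in the Upf3a siRNA arm and 34.9, 29.9, 39.4 and 40.1 FPKM in the control arm (log2 difference 0.74, limma adjusted p = 2.3e-04). Nup205, of the inner ring, rose by 0.41 (limma adjusted p = 4.4e-04), and Nup54, of the central channel, fell by 0.23 (limma adjusted p = 0.0027).

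Of 7 genes of nuclear envelope sealing, 3 rose (42.9%, beside 26.1% of all tested genes) and 0 fell (beside 22.3%). Vps4a, the ATPase that takes ESCRT-III filaments apart, had 7.75, 7.89, 7.89 and 9.24 FPKM in the Upf3a siRNA arm and 3.62, 3.05, 3.92 and 3.24 FPKM in the control arm (log2 difference 1.05, limma adjusted p = 9.3e-05). Its exons overlap those of Pdf on the other strand. Chmp4b, an ESCRT-III subunit, rose by 0.31 (limma adjusted p = 0.0024), and Ist1, listed as 2400003C14Rik, by 0.33 (limma adjusted p = 0.0022), with exons that overlap those of Pkd1l3 on the other strand. Of 4 chromatin partners, 2 rose (50%, beside 26.1% of all tested genes) and 0 fell (beside 22.3%). Cbx3, a heterochromatin protein, averaged 126 ± 1.54 FPKM in the Upf3a siRNA arm and 92.0 ± 13.7 FPKM in the control arm (limma adjusted p = 0.0024). Cbx1, a partner of Lbr, differed by 0.16 (limma adjusted p = 0.030), which did not pass with median-of-ratios scaling (0.058), quantile normalization (0.14) or without the 0, 15 or 105 min time point (0.058, 0.086 and 0.12, each an adjusted p).

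After actinomycin D, 29 of the 70 were called higher with time (41.4%), 30 lower (42.9%) and 11 did not pass. These shares are near the 42.7% and 38.6% of all tested genes. The median slope was 0.0088 log2 units per hour, beside 0.090 for the 7 genes and 0.014 over all tested genes. The steepest falls named were those of Lemd3 at -0.58 (limma adjusted p = 8.7e-06), Nup153 at -0.57 (limma adjusted p = 3.9e-07) and Nup62 at -0.55 (limma adjusted p = 8.9e-07). Exons of Nup62 overlap those of Il4i1 on the same strand and Atf5 on the other, and those of Banf1 overlap Eif1ad on the other. Lemd3, like Emd a LEM-domain protein of the inner membrane, had 7.21, 7.27, 2.41 and 0.928 FPKM in the Upf3a siRNA arm and 7.77, 8.04, 2.40 and 1.18 FPKM in the control arm. Banf1, the gene for BAF, rose at 0.24 (limma adjusted p = 1.2e-05), a call lost after quantile normalization (0.015, adjusted p = 0.31). None of the 70 passed the test of a slope difference between the arms.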

How the data were processed

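Per the labels, P19 cells received Upf3a siRNA or control siRNA and actinomycin D, and RNA was sequenced at 4 times. The deposited table holds FPKM values with confidence limits for 8 conditions; per the file headers it gives 1 value per gene and condition, and the sources used here do not say how the 2 cultures listed per condition were combined. TopHat2, Cufflinks and mm10 are named in the submitters' processing notes. Depth is unknown, so no counting interval was made.

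The values were taken as deposited. Genes were kept at a mean of at least 1 FPKM, log2(FPKM + 1) was fitted with limma 3.58.1 in R 4.3.3, without trend, and p-values were Benjamini-Hochberg adjusted over all genes tested (threshold 0.05). The level difference was fitted on time point and arm, the slope over hours on arm and hours, and the slope difference with an arm by hours term. The fits were tested on simulated data with independent noise in each condition, which cannot speak to the spread between cultures. Figures and summaries used Python 3.11.15. Exon overlaps and positions came from GENCODE on GRCm38.

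The members and lists were chosen with earlier results of these data known. Named from each list were up to 4 genes called for the level difference and up to 2 for the slope, by largest moderated t, and for each member the 3 genes of highest Pearson r. Alternatives were other pseudocounts, filters, scalings and limma options, and leaving out each time point.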

Additional observations from a re-analysis of the deposited data

How the results depend on the processing

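Beside the values as deposited, 12 alternative settings were run. The level differences of the 7 genes stayed within the spread over time points in 77 of 83 recomputed values, and the slope differences passed the test in none of 83. Changing the filter or the limma options cannot alter a gene's level difference, so the level values of those settings stayed the same by construction. Lmnb2 stayed higher in the knockdown arm in each setting, lowest at 0.99 with a pseudocount of 5. The level of Sun2 changed sign to 0.044 with ribosomal protein scaling, 0.0024 without the 15 min and 0.011 without the 225 min time point, and that of Emd to -0.041 with quantile normalization, -0.0083 with median-of-ratios scaling and -0.0025 without the 15 min time point. Scaling to ribosomal protein genes turned the slopes over time to -0.19 for Lmnb1, -0.19 for Lmnb2, -0.085 for Lmna, -0.20 for Lbr, -0.10 for Emd, -0.20 for Sun1 and -0.20 for Sun2, and to -0.054 for Banf1, -0.039 for Tm7sf2, -0.066 for Chmp4b, -0.088 for Chmp2a, -0.15 for Cbx1 and -0.060 for Hdac3. That scaling moved the median of all genes by -0.247, and relative to the shifted median the 7 slopes were between 0.029 and 0.15. Quantile normalization turned the slopes of Lmnb1 to -0.047, Lbr to -0.031 and Cbx1 to -0.0055, and took Banf1 to 0.015 (adjusted p = 0.31). With ribosomal protein scaling, 30 of the other nuclear envelope genes were higher and 5 lower in level, against 20 and 10 as deposited. Over time 0 rose and 69 fell, against 29 and 30. Under that scaling, all 11452 tested genes gave 3870 higher and 1243 lower in level, and 53 higher and 10670 lower over time. The 69 that fell are thus near what tested genes did in general. The count of genes called for a slope difference, 1 as deposited, was 0 with no filter, 6 with trend and robust options, 22 without the 0 min time point, 2 without 15 min, 7 without 105 min and 10 without 225 min. Limits apart at 3 or more times were found for 77 genes higher and 21 lower, against 33 and 10 at all 4. The cause of these changes was not tested. The level fit pairs the arms by time point. No paired analysis by culture was possible because each condition has 1 deposited value. The absence of counts leaves the error within a condition to the authors' limits.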

Other observations

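Genes beside Lmnb2 were looked at after the values of the 7 genes were known. Timm13, which encodes a chaperone of mitochondrial import, lies 233 bases from Lmnb2 on the same strand. It had 77.6, 72.5, 93.0 and 152 FPKM in the Upf3a siRNA arm and 48.4, 43.7, 64.6 and 76.1 FPKM in the control arm at 0, 15, 105 and 225 min, higher at each time, with the authors' limits apart at 225 min only. Its exons overlap those of Tmprss9 on the other strand, which averaged 0.085 FPKM. The other tested genes within 50 kb of Lmnb2 had mean log2 differences of 0.40 for 3110056O03Rik, 0.053 for Lsm7, 0.028 for Gng7 and -0.25 for Gadd45b. Whether the values of Lmnb2 and Timm13 share a source was not tested.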
